A study of Mus musculus with 16 samples.

Results

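The tubulin isotypes described here are 10 mouse genes, the α-tubulins *Tuba1a*, *Tuba1b* and *Tuba4a*, the β-tubulins *Tubb2a*, *Tubb2b*, *Tubb3*, *Tubb4a* (listed as *Tubb4* on the array), *Tubb5* and *Tubb6*, and the γ-tubulin *Tubg1*. They were chosen by name, as every probe whose symbol, or an older symbol with the same Entrez gene number, was that of a member, out of 17567 genes that the array table names. The 10 genes were read by 16 probes, 6 for *Tubb2b*, 2 for *Tubb5* and 1 for each other gene, and 15 of the 16 passed the filter on dim probes. Total RNA of hippocampus was hybridized to MouseRef-8 v2 beadchips (Illumina), where the fluorescence of many beads is averaged for every probe. The 16 arrays came from 4 groups of 4: WT mice at postnatal day 1 (P1), *Mef2c*-het mice at P1, WT mice at P30 and *Mef2c*-het mice at P30. *Mef2c*-het mice carry 1 copy of *Mef2c* with exon 2 deleted in every cell and are called KO in the array labels, and both genotypes are on the C57BL/6J background. The labels name no other treatment or allele, and do not state that the arrays of a group came from separate animals, so that the p-values measure the spread between arrays.

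Microtubules are hollow polymers of α-tubulin and β-tubulin pairs, and γ-tubulin forms the ring complex from which they start to grow. Mammals have many α and β genes whose proteins are nearly alike along most of their length and differ mainly in the tail that enzymes and motor proteins read. Newly born neurons build axons and dendrites with a set of isotypes that includes *Tuba1a*, *Tubb2b*, *Tubb3* and *Tubb5*, and defects in these genes in people disturb neuron migration and cortical folding. *Tubb4a* is a β-tubulin of mature brain, abundant in neurons and in myelin-forming oligodendrocytes, and *Tuba4a* is an α-tubulin of mature neurons whose gene does not encode the C-terminal tyrosine of other α-tubulins. *Tubb3* is widely used as a marker of neurons and *Tubb5* is made in most cells.

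From P1 to P30 the isotypes moved in opposite directions in the hippocampus of both genotypes. *Tuba4a* rose 10.8-fold in WT and 11.1-fold in *Mef2c*-het mice, and *Tubb4a* rose 1.92-fold and 1.94-fold. *Tubb2b*, *Tubb6*, *Tuba1a* and *Tubb5* fell, by up to 8.79-fold in WT mice for a probe of *Tubb2b*. Between *Mef2c*-het and WT mice of the same age, no tubulin probe passed the test at either age. Of all 14777 tested probes only 2 passed at P1 and 1 at P30.

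The arrays were compared before the groups. The typical probe had 36 to 39 beads per array, with a bead standard error of typically 3.38% to 4.05% of its intensity (medians by array), and 12638 to 14150 probes were detected per array. At each age a smaller cluster of arrays stood apart in the clustering of the signals, 2 arrays at P1 (replicate 8 of WT and of *Mef2c*-het) and 3 at P30 (WT replicates 6 and 7 and *Mef2c*-het replicate 7). The 5th percentile of intensity was 140.0 to 161.4 on the smaller P1 cluster against 109.4 to 130.8 on the other 6 P1 arrays, and 143.8 to 158.4 against 105.8 to 124.6 at P30. By *Xist* and Y-linked signals, all P30 mice were read as male, while at P1 3 WT and 2 *Mef2c*-het mice were read as female. Tubulin probes whose call changed with the larger clusters alone or with sex as a covariate are given with those values. *Mef2c* itself had 2 tested probes, with log2 fold changes in *Mef2c*-het over WT mice of 0.07 and -0.01 at P1 and of -0.29 and -0.25 at P30, none past the threshold (adjusted p = 1.0 and 0.994 in limma). The *Mef2c*-het arrays at P30 spanned 8.17 to 8.96 and the WT arrays 8.60 to 8.97 in the first of these probes. Whether the probes lie in the deleted exon is not given in the sources used here, so that they do not check the labels.

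Marker genes of brain cells were set beside the labelled ages, while markers of hippocampal subfields were not among the lists. The lists were chosen with earlier results of these data known, so that they are no independent check of the ages. From P1 to P30 in WT mice, 13 of 13 tested mature neuron markers rose, with *Camk2a* at a log2 fold change of 3.92 (adjusted p = 1.93e-12, limma), and 13 of 13 immature neuron markers fell, with *Dcx* at -4.55. Of 17 markers of proliferating cells 11 were tested, and 11 fell. Tested were 13 of 15 mature and 13 of 14 immature neuron markers. In these and the other marker lists, a marker detected at 1 age alone passed the filter on dim probes only through that age. Its direction is then not independent of the filter. In *Mef2c*-het mice 12 of 13 mature neuron markers rose, while 11 of 13 immature neuron markers and 10 of 11 markers of proliferating cells fell. At the same adjusted threshold of 0.05, 28.0% of all probes were higher and 31.7% lower in WT, and 26.9% and 31.4% in *Mef2c*-het mice. Of 12 tested oligodendrocyte markers 11 rose, with *Mbp* at a log2 fold change of 7.03. The summed normalized signal of the 12 went from 3005 to 3626 on the WT P1 arrays to 104112 to 116681 on the WT P30 arrays. These sums include background, which was not subtracted, so that their ratio is not that of the marker RNA. These lists moved together with the tubulins described next, and their part in the tubulin changes was not tested. In bulk tissue, fewer cells of a type and less RNA per cell cannot be told apart.

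Values are log2 signals after quantile normalization of the 16 arrays, and each log2 fold change comes from limma fitted to 14777 probes, with adjusted p-values by the Benjamini-Hochberg method over all of them. Since no background was subtracted, fold changes of dim probes are understated. Among all tested probes 59.7% passed the adjusted threshold of 0.05 between WT P1 and WT P30, 28.0% higher and 31.7% lower at P30. Of the 15 tubulin probes 12 passed it, 2 higher and 10 lower, in 8 of the 10 genes. In *Mef2c*-het mice 58.2% of all probes passed, 26.9% higher and 31.4% lower, and again 12 tubulin probes passed, 2 higher and 10 lower. The groups of arrays did not overlap between the ages for 11 tubulin probes in each genotype, against 53.1% of all probes in WT and 52.5% in *Mef2c*-het mice. The median log2 fold change of the tubulin probes was -0.68 in WT and -0.69 in *Mef2c*-het mice, against -0.03 and -0.02 for all probes. Their median size, regardless of direction, was 0.77 and 0.81, against 0.30 and 0.29. The share of tubulin probes past the threshold was thus somewhat above that of all probes, and the sizes were larger, on 15 probes of which 5 read a single gene.

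**Figure D1:**
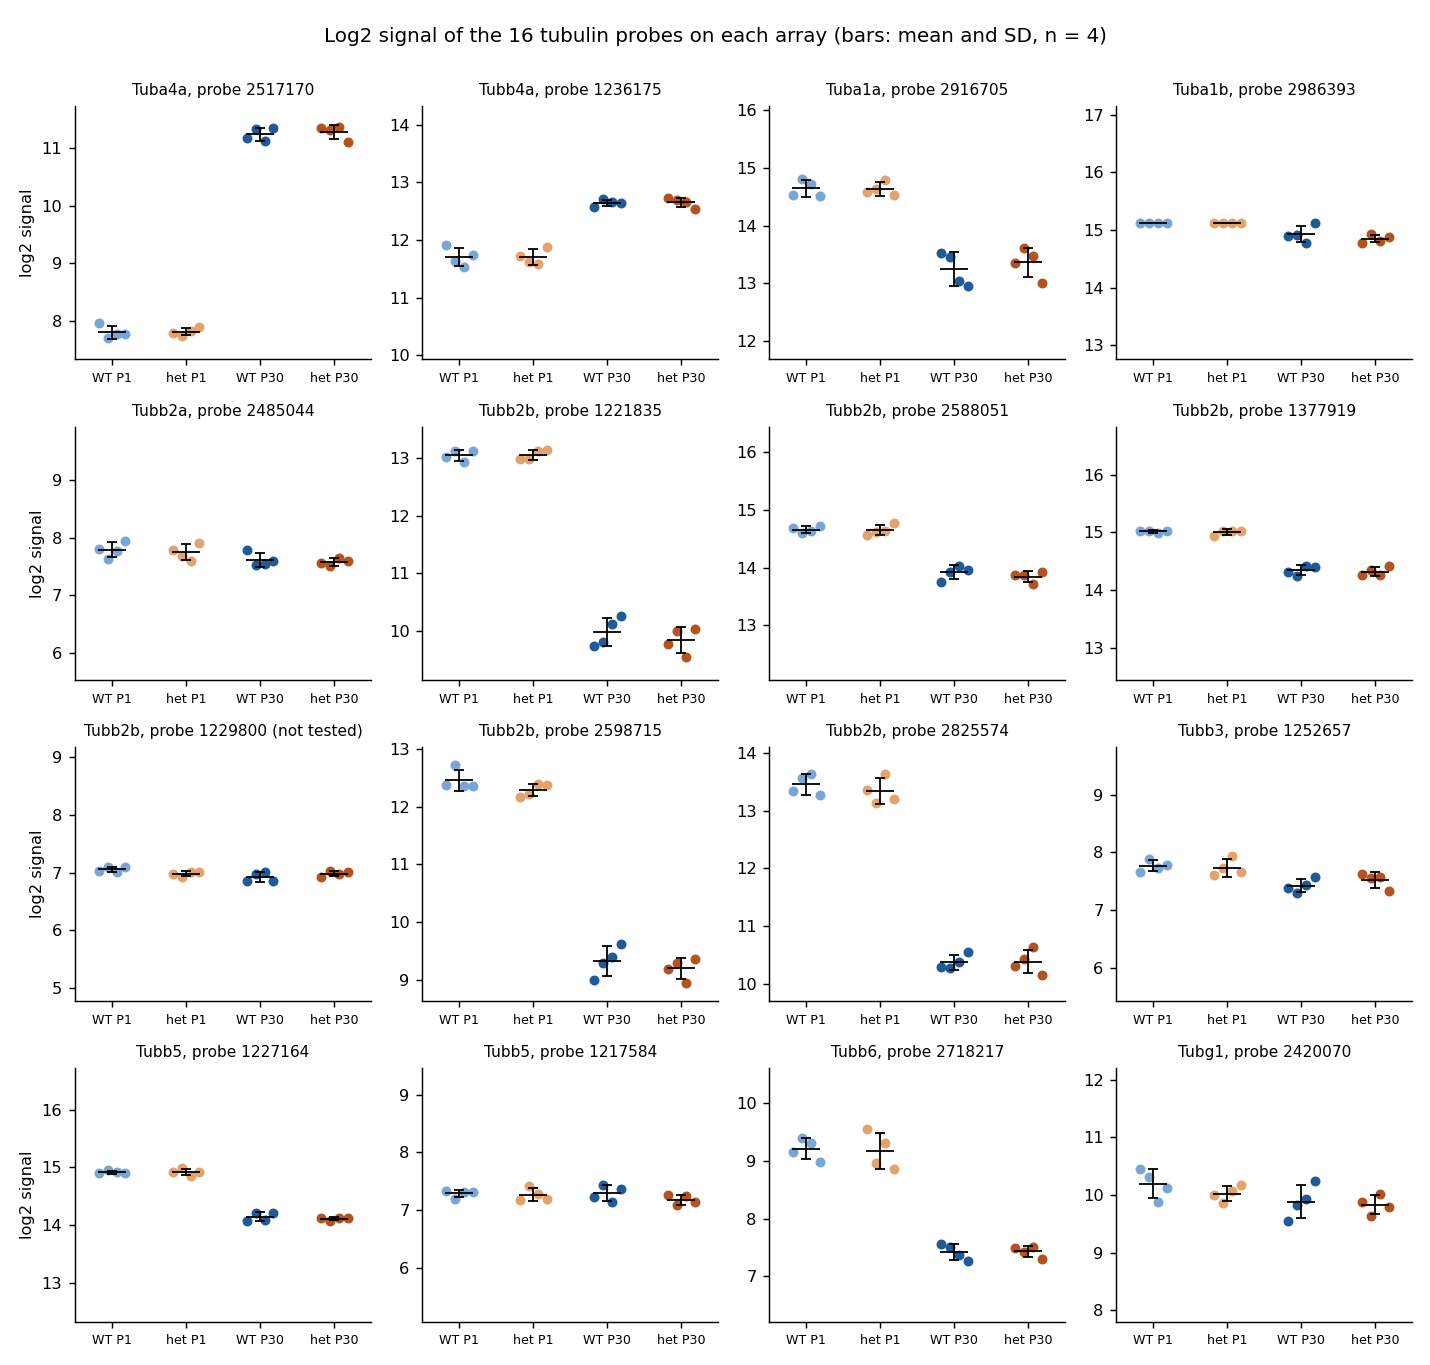
Log2 signal (y axis) of each of the 16 tubulin probes on the 16 arrays (points) in the 4 groups (x axis; het is *Mef2c*-het), with the mean and SD of 4 arrays as bars; every panel spans the same number of log2 units. *Tuba4a* and *Tubb4a* lie higher at P30, 3 probes of *Tubb2b*, *Tubb6* and *Tuba1a* lie lower, and the genotypes overlap at each age.

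*Tuba4a*, the α-tubulin of mature neurons, had the largest rise. Its log2 signal in WT mice at P1 was 7.97, 7.70, 7.78 and 7.77, and in WT mice at P30 it was 11.17, 11.33, 11.13 and 11.35. In *Mef2c*-het mice it was 7.79, 7.75, 7.83 and 7.89 at P1 and 11.36, 11.32, 11.37 and 11.11 at P30. Every P30 array lay more than 3 log2 units above every P1 array. This was a log2 fold change of 3.44 in WT (standard error 0.076, adjusted p = 3.18e-15, limma) and 3.47 in *Mef2c*-het mice (adjusted p = 2.95e-15, limma). The P1 signal was near the floor of the array, at an intensity of 200 to 269 in WT mice, and with normexp background correction the log2 fold change of *Tuba4a* was 4.51 in WT and 4.54 in *Mef2c*-het mice.

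*Tubb4a*, the β-tubulin of mature brain and myelin, was the other isotype that rose. WT arrays read 11.90, 11.64, 11.53 and 11.73 at P1 and 12.58, 12.71, 12.65 and 12.64 at P30. *Mef2c*-het arrays read 11.73, 11.62, 11.58 and 11.88 at P1 and 12.73, 12.69, 12.66 and 12.54 at P30. The ages did not overlap, and the 4 P30 values of WT mice lay within a narrower range than the 4 P1 values. *Tubb4a* thus changed by 0.94 on the log2 scale in WT (standard error 0.082, adjusted p = 4.14e-08, limma) and 0.95 in *Mef2c*-het mice (adjusted p = 3.86e-08, limma).

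Among the isotypes that fell, the α-tubulin *Tuba1a*, the main α gene of newly born neurons, went from 14.53, 14.81, 14.73 and 14.51 in WT mice at P1 to 13.53, 13.46, 13.04 and 12.95 at P30. In *Mef2c*-het mice it went from 14.58, 14.64, 14.80 and 14.52 to 13.35, 13.62, 13.46 and 13.01. At P30 the 3 arrays of the smaller cluster gave the 3 lowest values, WT replicates 6 and 7 and *Mef2c*-het replicate 7. Its log2 fold change was -1.40 in WT (standard error 0.14, adjusted p = 2.21e-07, limma) and -1.27 in *Mef2c*-het mice (adjusted p = 7.07e-07, limma). With the larger clusters alone it was -1.21 and -1.21.

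*Tuba1b*, an α-tubulin made in most cells, was the brightest probe of the array on all 8 P1 arrays and on WT replicate 7 at P30. Quantile normalization gives the brightest probe of every array the same value, so that its normalized signal was 15.12 on each of these 9 arrays with no spread. The other WT arrays at P30 read 14.90, 14.91 and 14.78, and the *Mef2c*-het arrays 14.78, 14.93, 14.81 and 14.88. For *Tuba1b* the log2 fold change was -0.20 in WT (adjusted p = 0.0139, limma) and -0.28 in *Mef2c*-het mice (adjusted p = 0.00131, limma). With the P1 values held equal by the normalization, the spread behind these p-values is understated. In the exact permutation test over arrays p was 0.143 in WT, where the ages overlapped after normalization, and 0.0286 in *Mef2c*-het mice. Before normalization its intensity was 33544 to 45402 in WT mice at P1 and 26569 to 33212 at P30, without overlap, and with arrays scaled to a common median the log2 fold change was -0.43 in WT and -0.36 in *Mef2c*-het mice. The WT call was lost with sex as a covariate (adjusted p = 0.0630, limma) and without WT replicate 6 at P30 (adjusted p = 0.0542, limma).

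*Tubb2b*, a β-tubulin of migrating and growing neurons, was read by 6 probes that disagreed in size. Probe ILMN_2598715 went from 12.38, 12.72, 12.36 and 12.36 in WT mice at P1 to 8.99, 9.29, 9.39 and 9.61 at P30, and from 12.17, 12.22, 12.39 and 12.37 to 9.18, 9.29, 8.94 and 9.36 in *Mef2c*-het mice. Every P30 array lay more than 2 log2 units below every P1 array. Its log2 fold change was -3.14 in WT (standard error 0.12, adjusted p = 2.48e-12, limma) and -3.10 in *Mef2c*-het mice, the largest fall of a tubulin probe in WT. Probes ILMN_1221835 and ILMN_2825574 of *Tubb2b* fell by a similar amount, with log2 fold changes of -3.06 and -3.09 in WT and -3.22 and -2.95 in *Mef2c*-het mice.

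Probe ILMN_1377919 of *Tubb2b* went from 15.03, 15.03, 14.98 and 15.03 in WT mice at P1 to 14.31, 14.24, 14.42 and 14.40 at P30. In *Mef2c*-het mice it went from 14.93, 15.03, 15.03 and 15.03 to 14.25, 14.34, 14.26 and 14.42. Its log2 fold change was -0.68 in WT and -0.69 in *Mef2c*-het mice, and that of probe ILMN_2588051 was -0.74 and -0.81, all past the threshold in limma. These are also the *Tubb2b* probes of the highest intensity, at 25546 to 42837 in WT mice at P1, and the value 15.03 is shared because quantile normalization gives it to the second brightest probe of each array. The sixth probe, ILMN_1229800, was detected on 0 of 16 arrays and was not tested. The direction of the change in *Tubb2b* was the same in its 5 tested probes, while its size was not settled. All 6 probes are assigned to the same transcript record, probe sequences were not used here, and why they differ was not tested.

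*Tubb5*, the β-tubulin made in most cells, went from 14.90, 14.95, 14.91 and 14.90 to 14.06, 14.22, 14.09 and 14.22 in WT mice in its bright probe ILMN_1227164. In *Mef2c*-het mice it went from 14.91, 14.98, 14.85 and 14.91 to 14.13, 14.07, 14.12 and 14.12. The ages did not overlap, and the fall measured -0.77 in WT (standard error 0.051, adjusted p = 1.58e-09, limma) and -0.81 in *Mef2c*-het mice. At P1 this probe was among the brightest of each array, where quantile normalization narrows the spread. With arrays scaled to a common median the log2 fold change was -0.89 in WT (adjusted p = 2.49e-05, limma) and -0.87 in *Mef2c*-het mice. The other *Tubb5* probe, ILMN_1217584, was detected on 4 of 16 arrays and lay between 7.08 and 7.44 throughout. It gave a log2 fold change of 0.00 in WT and -0.09 in *Mef2c*-het mice without passing the test, from a signal close to background throughout.

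*Tubb6*, a β-tubulin found mainly outside neurons, went from 9.16, 9.40, 9.31 and 8.99 in WT mice at P1 to 7.56, 7.51, 7.36 and 7.27 at P30. In *Mef2c*-het mice it went from 9.56, 8.97, 9.32 and 8.87 to 7.50, 7.42, 7.52 and 7.30. Its log2 fold change was -1.79 in WT (standard error 0.13, adjusted p = 4.74e-09, limma) and -1.74 in *Mef2c*-het mice. At P30 *Tubb6* was detected on 3 of 4 arrays in each genotype, and with normexp background correction its log2 fold change was -3.27 in WT and -3.18 in *Mef2c*-het mice.

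The neuronal β-tubulin *Tubb3* had a dim probe, with an intensity of 207 to 230 in WT mice at P1 and detection on 3 of 4 arrays in each genotype at P30. It went from 7.66, 7.89, 7.74 and 7.79 to 7.38, 7.30, 7.43 and 7.57 in WT mice, without overlap, and from 7.60, 7.72, 7.94 and 7.65 to 7.63, 7.55, 7.57 and 7.33 in *Mef2c*-het mice, with overlap. The log2 fold change was -0.35 in WT (standard error 0.087, adjusted p = 0.00247, limma) and -0.21 in *Mef2c*-het mice (adjusted p = 0.0466, limma). With normexp background correction it was -0.98 in WT (adjusted p = 0.00170, limma) and -0.57 in *Mef2c*-het mice (adjusted p = 0.0435, limma). The *Mef2c*-het call was lost under 14 of 26 alternatives, among them sex as a covariate (-0.19, adjusted p = 0.119, limma), the larger clusters alone (adjusted p = 0.106, limma) and the leaving out of any of 9 single arrays (WT replicates 5 and 8 at P1 and 2 and 6 at P30, *Mef2c*-het replicates 2 and 4 at P1 and 5, 6 and 7 at P30). The log2 fold change of *Tubb3* came nearest to 0, at -0.14, without *Mef2c*-het replicate 4 at P1. The difference between the genotypes in this change was not past the threshold (0.14, 95% limits -0.12 to 0.40).

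*Tubb2a*, a β-tubulin encoded next to *Tubb2b* and close to it in sequence, and *Tubg1*, the main γ-tubulin of the ring complex, did not pass the test. *Tubb2a* had means of 7.79 ± 0.13 at P1 and 7.61 ± 0.12 at P30 in WT mice (SD, n = 4), a log2 fold change of -0.18 (adjusted p = 0.0671, limma), and -0.17 in *Mef2c*-het mice (adjusted p = 0.0872, limma). *Tubg1* had means of 10.20 ± 0.25 and 9.89 ± 0.29 in WT mice (SD, n = 4), a log2 fold change of -0.31 (adjusted p = 0.0675, limma), and -0.19 in *Mef2c*-het mice (adjusted p = 0.261, limma). Both moved past the threshold in WT under some settings, *Tubb2a* for example with sex as a covariate (-0.29, adjusted p = 0.0183, limma) or normexp background correction (-0.44, adjusted p = 0.0496, limma), and *Tubg1* with the larger clusters alone (-0.53, adjusted p = 0.00905, limma). *Tubb2a* also passed in *Mef2c*-het mice with sex as a covariate (-0.24, adjusted p = 0.0239, limma) and was at -0.42 with normexp background correction (adjusted p = 0.0628, limma). Their 95% limits in WT reached from -0.35 to -0.01 for *Tubb2a* and from -0.60 to -0.01 for *Tubg1*.

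**Figure D2:**
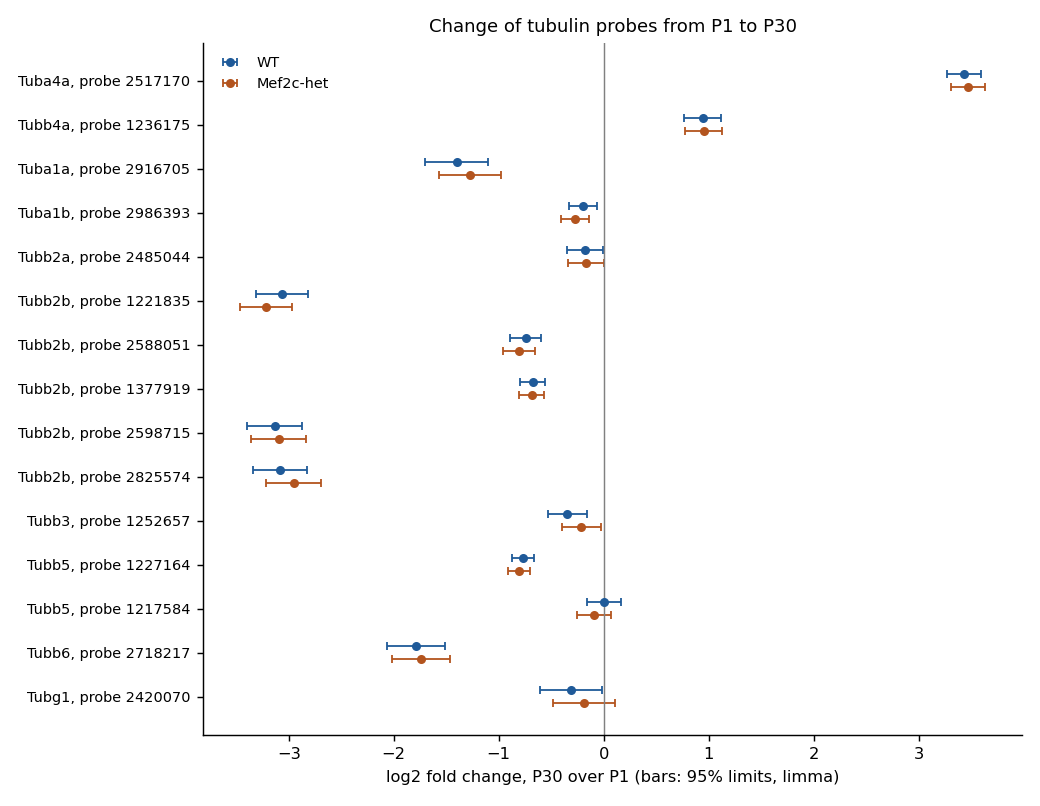
Log2 fold change from P1 to P30 (x axis) of each tested tubulin probe (rows) in WT (blue) and *Mef2c*-het mice (orange), with 95% limits from limma as bars. *Tuba4a* at 3.44 and 3.47 and *Tubb4a* at 0.94 and 0.95 lie to the right, and 3 of the 5 *Tubb2b* probes lie near -3 while the other 2 lie between -0.81 and -0.68.

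The unequal change of rising and falling isotypes was also read within each array, as the log2 difference between 2 probes, so that a scaling of the whole array cancels. *Tuba4a* minus *Tuba1a* was -7.10 to -6.56 on the WT P1 arrays and -2.36 to -1.60 on the WT P30 arrays, and moved by 4.84 in WT and 4.75 in *Mef2c*-het mice. *Tubb4a* minus the brightest *Tubb2b* probe, ILMN_1377919, was -3.45 to -3.13 on the WT P1 arrays and -1.77 to -1.53 on the WT P30 arrays. This difference moved by 1.62 in WT and 1.64 in *Mef2c*-het mice, and by 3.08 and 3.10 with the mean of the 5 tested *Tubb2b* probes in place of the brightest, whose P1 signal is held at 15.03 on most arrays by the normalization. Each pair sets a probe that rose against a probe that fell, so that the separation of the ages follows from the single probes and adds no independent support. These differences measure unequal change of the probes and not the ratio of their mRNAs.

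In *Mef2c*-het against WT mice of the same age, 0 of the 15 tubulin probes passed the adjusted threshold in limma, at P1, where 0.0135% of all probes did, or at P30, where 0.00677% did. At an unadjusted p under 0.05 the count was 0 of 15 at each age as well, against 338 of all 14777 probes at P1 and 419 at P30. At P1 the log2 fold changes lay between -0.17 (*Tubg1*) and 0.01, and the 95% limits of the 15 probes reached from -0.47 to 0.29. At P30 they lay between -0.14 (*Tubb2b* probe ILMN_1221835) and 0.12 (*Tuba1a*), and the limits reached from -0.39 to 0.41. Arrays of the genotypes overlapped in 15 of 15 tubulin probes at both ages, whereas 1.42% of all probes at P1 and 1.89% at P30 had groups that did not overlap. At P1 the overlap of *Tuba1b* was fixed by the normalization, which gave it 15.12 on all 8 arrays, and *Tubb2b* probe ILMN_1377919 had the shared value 15.03 on 6 of the 8. Before normalization the P1 intensities of the genotypes overlapped in both probes, at 33544 to 45402 in WT and 36165 to 41232 in *Mef2c*-het mice for *Tuba1b* and 31795 to 42837 and 32701 to 37820 for ILMN_1377919. At P30 the lowest estimate moved from -0.14 to -0.36 with normexp background correction, and the highest reached 0.31 among the alternative settings. The limits thus bound the difference of signals without background subtraction, where differences of dim probes are understated. They do not show that the genotypes were alike.

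The difference of the age change between *Mef2c*-het and WT mice, an interaction term in limma, passed the threshold in 0.0% of all probes and in 0 of 15 tubulin probes, with 0 of 15 at an unadjusted p under 0.05 against 438 of all probes. Its value lay between -0.15 and 0.14 on the log2 scale, with 95% limits reaching from -0.50 to 0.55. Among the alternative settings its value reached from -0.29 to 0.41. For *Tuba4a* it was 0.04 (95% limits -0.19 to 0.27) and for *Tubb4a* 0.01 (-0.24 to 0.26). For *Tuba1a* it was 0.13 (-0.29 to 0.55), a wider interval.

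**Figure D3:**
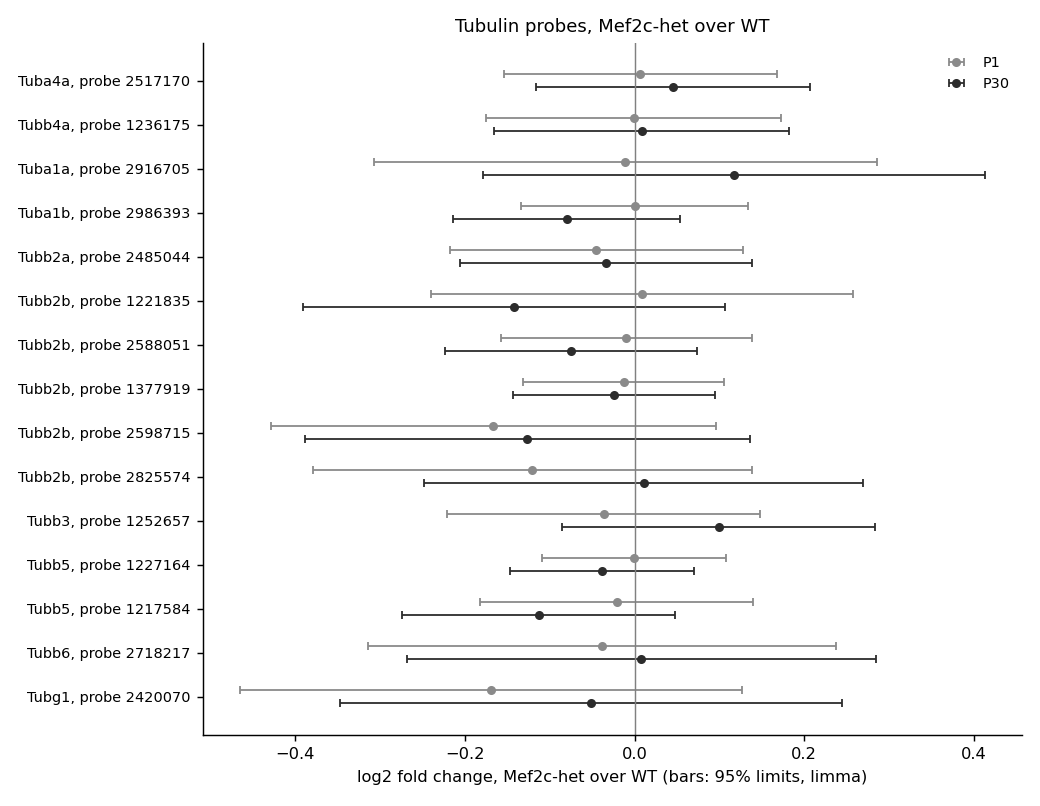
Log2 fold change of *Mef2c*-het over WT mice (x axis) of each tested tubulin probe (rows) at P1 (grey) and P30 (black), with 95% limits from limma as bars. Each interval includes 0, and the estimates lie between -0.17 and 0.12.

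The regions just before the start of the genes were read from the RefSeq promoter table of GRCm38.p6, which held 7 of the 10 genes. Not in the table were *Tubb2b*, *Tubb6* and *Tubg1*. The 250 bases upstream of the start are shown for *Tubb4a*, which rose, and for *Tuba1a* and *Tubb5*, which fell, 5′ to 3′ on the strand of the gene. They are shown to set the sequences of isotypes that moved in opposite directions side by side. Capitals mark matches on either strand to the TATA box (TATAA), the CCAAT box, the Sp1 core (GGGCGG), the E-box (CACGTG) or the cAMP response element (TGACGTCA), and no matches overlap in these windows. The regions are chr17:57087601-57087850 (*Tubb4a*, minus strand), chr15:98953502-98953751 (*Tuba1a*, minus strand) and chr17:35838302-35838551 (*Tubb5*, minus strand).
Tubb4a: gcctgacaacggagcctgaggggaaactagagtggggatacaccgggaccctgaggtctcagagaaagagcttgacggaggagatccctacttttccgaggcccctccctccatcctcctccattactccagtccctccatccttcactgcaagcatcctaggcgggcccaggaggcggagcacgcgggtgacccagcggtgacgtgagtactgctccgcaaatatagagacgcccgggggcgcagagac
Tuba1a: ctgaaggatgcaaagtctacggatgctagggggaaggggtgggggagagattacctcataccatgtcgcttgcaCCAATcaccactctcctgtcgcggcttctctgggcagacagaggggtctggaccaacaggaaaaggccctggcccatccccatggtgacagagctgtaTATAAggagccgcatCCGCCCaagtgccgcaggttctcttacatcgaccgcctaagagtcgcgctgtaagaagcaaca
Tubb5: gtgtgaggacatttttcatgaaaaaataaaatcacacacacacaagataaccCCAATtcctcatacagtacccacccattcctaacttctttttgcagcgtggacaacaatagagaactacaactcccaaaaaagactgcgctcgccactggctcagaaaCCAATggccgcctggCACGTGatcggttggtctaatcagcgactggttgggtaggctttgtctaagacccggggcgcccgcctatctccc

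The *Tubb4a* window held none of the 5 motifs, while that of *Tuba4a*, which also rose and is not shown, held 2 matches of GGGCGG. Whether motifs go with the direction of change was not tested. The *Tuba1a* window held TATAA 78 bases before the start, with 1 match each of CCAAT and GGGCGG, and the *Tubb5* window held 2 matches of CCAAT and 1 of CACGTG. In windows of 300 bases, which add 50 bases after the start, TATAA was found in 4 of the 7 tubulin promoters against 25.5% of 27025 promoters of all genes, and CCAAT in 3 against 37.9%. GGGCGG was found in 6 of 7 against 35.9%, CACGTG in 1 against 7.24%, and TGACGTCA in 1 against 1.88%. The MEF2 consensus was found in 0 of 7 against 0.566%. A match is a run of letters and is not evidence of binding. The counts of TATAA and GGGCGG include *Tuba4a*, whose window is read from a start inside the annotated span of the gene, as another of its transcripts starts upstream.

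Of the other tubulin genes, 9 of 10 were tested in their probe of highest mean signal, *Tubal3* being the exception. From P1 to P30 in WT mice 2 rose and 5 fell, and in *Mef2c*-het mice the counts were again 2 and 5. Of all probes 28.0% were higher and 31.7% lower in WT, and 26.9% and 31.4% in *Mef2c*-het mice. Whether the list differs from other genes was not tested. The α-tubulin *Tuba1c* fell by 1.69 on the log2 scale (adjusted p = 5.69e-11, limma), *Tuba3a* fell by 2.35 and *Tuba3b* by 1.09, the latter detected on 2 of 4 WT arrays at P30. The β-tubulin *Tubb4b*, made in most cells and used in cilia, fell by 0.53, and *Tube1*, the ε-tubulin of centrioles, fell by 0.23. *Tubg2*, a γ-tubulin enriched in brain, rose by 0.32 (adjusted p = 0.00622, limma). *Tuba8* was not well above background on any of the 8 P1 arrays and was detected on all 8 P30 arrays. It passed the filter on dim probes only through the P30 arrays. Its place among the genes that rose is thus not independent of the filter, and its p-values are left out. *Tuba8* was at least 1.96-fold higher at P30 in WT and at least 1.86-fold in *Mef2c*-het mice. This bound sets its P30 mean against the lowest signal among detected probes, or its own signal where higher, on each P1 array. *Tubb1*, of blood platelets, and *Tubd1*, the δ-tubulin, did not pass the test in WT.

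The genes that fold and assemble tubulin are those of the CCT ring, prefoldin and the tubulin cofactors. Of 19 tested of 21 genes 2 rose and 10 fell in both genotypes, where 28.0% of all probes were higher and 31.7% lower in WT, and whether the list differs from other genes was not tested. It had a median log2 fold change of -0.63 in WT and -0.31 in *Mef2c*-het mice against -0.03 and -0.02 for all probes. Taken gene by gene, the difference of the age change between the genotypes had a median of only 0.01. The gap between the 2 medians is thus not the difference of a typical gene. The CCT subunits *Cct3* (-1.08, adjusted p = 8.64e-10, limma) and *Cct8* (-0.94) had the largest falls in WT. *Tbcel*, a cofactor E-like protein that destabilizes tubulin (0.70), and *Arl2*, a small GTPase that works with cofactor D (0.37), rose.

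For the γ-tubulin ring and other nucleation factors, 11 of 20 genes were tested, and 2 rose and 6 fell in both genotypes, a total of 8 of 11 against 59.7% of all probes in WT and 58.2% in *Mef2c*-het mice. *Akap9*, which holds ring complexes at the Golgi apparatus (-1.24), and *Haus8*, of the augmin complex that branches microtubules (-0.78), fell most in WT, and *Tubgcp4*, a ring subunit (0.28), and *Pcnt*, a scaffold of the centrosome (0.20), rose. *Tubg1* itself did not pass the test, and *Tubg2* rose.

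Among the enzymes that modify tubulin, 17 of 23 were tested, with 5 higher and 7 lower in WT and 4 higher and 6 lower in *Mef2c*-het mice. These shares, 12 and 10 of 17, are near the 59.7% and 58.2% of all probes. The largest falls were those of *Svbp*, the partner of the vasohibins that remove the C-terminal tyrosine (-2.21, adjusted p = 1.04e-13, limma), and of *Atat1*, the α-tubulin acetyltransferase (-2.02, adjusted p = 1.63e-12, limma). The largest rises were those of *Ttll11*, a polyglutamylase (1.22), and of *Sirt2*, a deacetylase of α-tubulin that is abundant in myelin (1.15). Of the severing proteins 5 of 7 were tested, with 2 higher and 2 lower in WT and 0 higher and 2 lower in *Mef2c*-het mice. For all probes the shares were 28.0% and 31.7% in WT and 26.9% and 31.4% in *Mef2c*-het mice. *Fignl1* (-1.31) and *Katna1*, the catalytic katanin subunit (-0.42), fell in WT, and *Katnal1*, a katanin-like protein, rose in WT (0.42), with 0.19 in *Mef2c*-het mice (adjusted p = 0.0977, limma). No gene of these 5 lists passed the threshold by genotype at P1, at P30 or in the interaction, at an adjusted p under 0.05 in limma. Of all 14777 probes 2, 1 and 0 passed in these comparisons. At an unadjusted p under 0.05 the count was 2 of 61 genes in each, against 338, 419 and 438 of all probes.

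**Figure D4:**
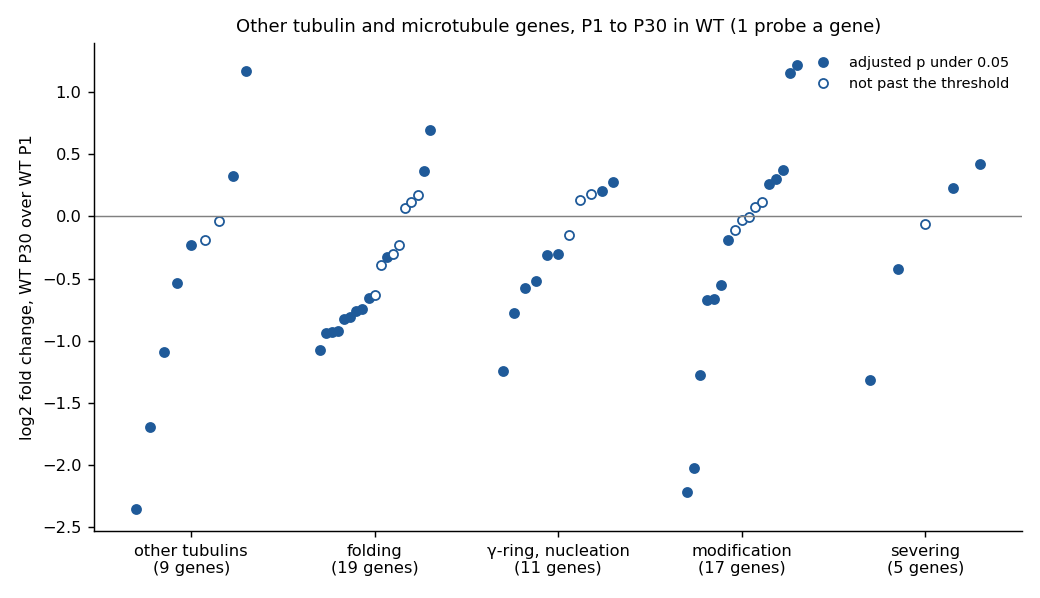
Log2 fold change from WT P1 to WT P30 (y axis) of each tested gene of 5 lists (x axis), 1 probe a gene, ordered by value within a list. Filled points passed the adjusted threshold of 0.05 in limma; in the folding list 10 filled points lie below 0 and 2 above, and in the list of other tubulins 5 lie below and 2 above.

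Markers of other cells moved with age in differing degrees. Their counts stand beside 28.0% of all probes higher and 31.7% lower in WT, and 26.9% and 31.4% in *Mef2c*-het mice. Astrocyte markers had 10 of 13 tested genes higher and 1 lower in WT at P30 (*Aqp4*, 2.08), and microglia markers 9 of 13 higher and 0 lower (*Cx3cr1*, 0.69). Among microglia markers 13 of 13 were higher in *Mef2c*-het mice, with a median log2 fold change of 0.91 against 0.60 in WT. In the interaction 0 of the 101 tested markers of the 9 marker lists passed in limma, and 0 of all 14777 probes did. At an unadjusted p under 0.05 the count was 7 of the 101 markers, against 438 of all 14777 probes. Endothelial markers had 4 of 9 higher and 3 lower (*Cldn5*, -1.46), and meningeal and fibroblast markers 1 of 9 higher and 3 lower (*Col1a1*, -0.20, adjusted p = 0.116, limma). Of 8 tested markers of choroid plexus, which borders the hippocampus, 3 were higher (*Kl*, *Enpp2* and *Prlr*) and 1 lower (*Otx2*) in both genotypes, these 4 being named after their values were seen. *Ttr*, its leading marker, had a log2 fold change of -2.34 with a standard error of 1.00 (adjusted p = 0.0547, limma), and the summed signal of that list ran from 7532 to 33944 on the WT P1 arrays and from 3498 to 27531 on the WT P30 arrays. The part of these cells in the tubulin changes was not tested.

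The genes whose signal was most like that of *Tuba4a* over the 16 arrays included *Opalin* (Pearson r = 0.9985), *Ntsr2*, *Rin1* and *Mbp*, with r of *Mbp* at 0.9981. *Opalin* and *Mbp* encode proteins of oligodendrocytes and myelin, *Ntsr2* a neurotensin receptor and *Rin1* a Ras effector of forebrain neurons. These r are set by the step between the ages, where 59.7% of all probes differed. Within the 8 P1 arrays the r of *Opalin* with *Tuba4a* was -0.33 and within the 8 P30 arrays 0.70. Over the deviations from the 4 group means the most like genes were *Rap1gds1* (r = 0.88, n = 16), *Slc23a3*, *Atp2b2*, *Gstt2* and *BC048403*. Both sets together shared no gene.

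For *Tubb2b* probe ILMN_2598715 the most like genes over the 16 arrays were *Tnc*, a matrix protein of the developing brain (r = 0.997), *Nkiras2*, *Tspan6*, *Igsf9* and *Tead2*. Over the deviations from the group means they were *Mrpl9* (r = 0.90), *Decr2*, *Arl6ip5*, *Fam89b* and *Nkiras2*, so that *Nkiras2* was in both sets, with r of 0.69 within the P1 and 0.95 within the P30 arrays. These r describe 16 arrays and carry no test.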

How the data were processed

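The authors deposited unnormalized mean bead intensities for each array and probe, with the bead number, the error over beads and a detection p-value from negative controls. Local background subtraction is not mentioned in the sources used here. Intensities (92.8 to 45402) were transformed to log2 and quantile normalized over the 16 arrays, as the study's methods state. The 14777 of 25697 probes detected (p under 0.05) on 4 or more arrays were fitted with limma 3.58.1 in R 4.3.3, with 4 group means, two-sided, Benjamini-Hochberg adjusted. Single values were compared by an exact permutation test over arrays. Probes were named through Entrez numbers, RefSeq accessions or symbols in the RefSeq table of GRCm38.p6 (25376 matched).

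The members and gene lists were chosen with earlier results of these data known. All member probes are described, other tubulins where past the threshold in WT, the 2 largest rises and falls of each microtubule list, the first gene of each marker list (*Mki67*, first among the markers of proliferating cells, was not tested), and the 5 genes most like the extreme members. Some genes that these rules name are not reported here. Alternatives were median scaling, cyclic loess, normexp with an offset of 16, no filter, detection p under 0.01, trended robust variances, sex, array cluster as a block, the larger clusters alone, the replicate number as a block, subsets of arrays and leaving out each array. The steps were tested on simulated data. The number of arrays, 4 a group, limits the precision.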

Additional observations from a re-analysis of the deposited data

Results flagged for a closer look

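Dixon's ratio is the gap of the most extreme array to its neighbour over the range of its group of 4. It exceeded its critical value in 4 of 60 groups of tubulin values, where chance gives about 3 for values without ties. The *Tuba1b* groups at P1 are among the 60, though their equal values could not be flagged. For *Tubb2b* probe ILMN_1377919 the ratio was 1.0 in WT mice at P1, where replicate 5 was at 14.98 and the other 3 at 15.03. It was also 1.0 in *Mef2c*-het mice at P1, where replicate 1 was at 14.93 and the others at 15.03, the equal values being those of the second rank after quantile normalization. For *Tubb2b* probe ILMN_2598715 it was 0.945 in WT mice at P1, with replicate 4 at 12.72 and the next array at 12.38. For the dim *Tubb5* probe ILMN_1217584 it was 0.856 in WT mice at P1, with replicate 4 at 7.19 and the next at 7.31.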

How the results depend on the processing

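Under every alternative run, *Tuba4a* and *Tubb4a* stayed higher at P30 and *Tubb2b* (5 probes), *Tubb6*, *Tuba1a* and *Tubb5* probe ILMN_1227164 lower, past the threshold in both genotypes, and 0 tubulin probes passed by genotype or in the interaction. The counts of tubulin probes lower at P30 ranged from 9 to 12 in WT and from 9 to 10 in *Mef2c*-het mice. The log2 fold change of *Tubb5* probe ILMN_1217584 in WT (main 0.00, not called) turned to -0.00111 under cyclic loess, to -0.043 with sex as a covariate, to -0.031 without WT replicate 4 at P1 and to -0.024 without WT replicate 7 at P30, with a range of -0.031 to 0.053 when single arrays were left out. *Tubb2a* passed in WT without WT replicate 4 at P1 or replicate 2 at P30, and in *Mef2c*-het mice without *Mef2c*-het replicate 4 at P1, and *Tubg1* passed in WT without WT replicate 5 at P1 or replicate 7 at P30. The 2 probes called between the genotypes at P1, no tubulins, became 0 with median scaling, sex as a covariate or the 8 P1 arrays alone, and 1 with cyclic loess, no filter or the larger clusters alone, with 0 to 2 when single arrays were left out. The 1 probe called at P30 became 0 with median scaling or the larger clusters alone, with 1 to 2 when single arrays were left out. With the replicate number as a block, a pairing that the arrays did not bear out (correlations of same-numbered deviations from -0.52 to 0.82), 3 probes were called at P1 and 0 at P30, none of them tubulins. With sex as a covariate the counts of rising genes went from 2 to 1 among the other tubulins and the γ-ring genes in both genotypes and among the folding genes in WT, and the counts of falling genes in WT from 3 to 1 among meningeal and from 1 to 0 among choroid plexus markers. The count of rising severing genes in WT went from 2 to 1 under 8 of 26 alternatives, sex as a covariate among them. In *Mef2c*-het mice it went from 0 to 1 under 4 of 26. Signals near background limit *Tubb3*, *Tubb2a*, *Tubb6* at P30 and *Tuba4a* at P1. The causes of these changes were not tested.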
